A study of Sus scrofa with 16 samples.

Results

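Psoas major and diaphragm were compared within the 4 feed-restricted animals of a study of Iberian pigs, a fat Mediterranean breed. These 4 animals gave 8 of the study's 16 arrays, 1 array per muscle and animal, and were chosen by the feeding level in the sample titles. The restricted animals were under 20% feed restriction, and 2 were male (animals 2 and 3) and 2 female (animals 5 and 8). All were slaughtered at 211 days of age. A further 4 animals, 2 of each sex and of the same breed and age, were on the high feeding level and gave 4 diaphragm and 4 psoas arrays. The sources used here do not say when the restriction began or whether the males were castrated. Levels are deposited log2 expression values of probe sets on an Affymetrix porcine array, and a difference of 1 on this scale is a 2-fold change.

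The diaphragm contracts with every breath throughout life, whereas the psoas major, which runs from the lumbar spine to the femur, flexes the hip and holds posture. Skeletal muscles differ in their mix of slow oxidative and fast glycolytic fibres, which use different myosins, troponins and calcium pumps, and muscles of different body levels keep the HOX code of the somites from which their precursors migrated. In restricted feeding, muscle is known to shift its fuel use and its handling of amino acids, and oxidative and glycolytic muscles need not do so alike.

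Of 23999 probe sets that were not controls, 11114 reached a log2 value of 4 on 4 or more of the 8 restricted arrays and were tested, and 5670 of these carried 1 gene symbol, for 4467 genes. Calls were made at a Benjamini-Hochberg adjusted p below 0.05 in limma's paired fit, with the animal as a block. The paired fit called 1978 probe sets (17.8%), of which 1016 (9.14%) were higher in psoas while 962 (8.66%) were higher in diaphragm. When each gene was represented by 1 probe set, 805 of the 4467 genes were called (18%). Psoas was higher for 423 of them (9.47%) and diaphragm for 382 (8.55%), and these shares are the background for the gene groups below. The 4 arrays of one muscle did not overlap with the 4 of the other for 2152 probe sets (19.4%). The median difference over all tested probe sets was 0.01, and the median standard error was 0.12. The count fell when any 1 animal was left out, least for animal 8: it was 286 without animal 2, 552 without animal 3, 637 without animal 5 and 1541 without animal 8. Of the 516 genes of the gene lists that were tested, 101 were called, and of these 17 were still called without animal 2, 39 without animal 3, 38 without animal 5 and 61 without animal 8.

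The muscle was the main source of variation among the 8 arrays. A principal component analysis put 42.1% of the variance on its first axis, with diaphragm arrays between -26.6 and -18.2 and psoas arrays between 19.5 and 27.1. The second axis held 19.8% and was positive on the 4 arrays of the males and negative on the 4 arrays of the females. Both tissues had the transcripts of striated muscle. All 14 genes of skeletal muscle identity on the array were tested, their mean level was 13.6 to 13.66 in diaphragm and 13.64 to 13.74 in psoas, and their median difference was 0.00. CAPN3, the muscle calpain, was 11.54 ± 0.35 in psoas and 10.53 ± 0.36 in diaphragm (mean ± SD, n = 4 animals, adjusted p = 0.0169), and SMPX, a small costamere protein, was also called higher in psoas (13.12 ± 0.06 against 12.77 ± 0.05, adjusted p = 0.0392).

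Genes of axial position included the 2 largest differences among the named genes. HOX proteins specify position along the body axis, those of higher number acting farther towards the tail, and MEIS proteins are their DNA-binding partners. HOXA9, a posterior HOX gene, read 5.14, 6.02, 7.58 and 6.75 in the diaphragm of animals 2, 3, 5 and 8, and 10.21, 10.88, 10.95 and 10.66 in their psoas. No diaphragm array reached the lowest psoas array, and the difference was 4.30 ± 0.29 (log2 ± SE, 19.7-fold, n = 4 animals, adjusted p = 0.00193). HOXD8 was higher in psoas in each animal as well, at 8.44, 8.53, 8.44 and 8.08 against 6.09, 6.46, 6.74 and 5.54, a difference of 2.17 ± 0.15 (4.49-fold, adjusted p = 0.00196). HOXD10 was 4.99 ± 0.05 in psoas and 3.80 ± 0.32 in diaphragm (adjusted p = 0.00718).

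The MEIS genes ran in opposite directions. MEIS2 read 8.79, 8.61, 9.11 and 8.87 in diaphragm and 3.14, 3.52, 3.59 and 3.49 in psoas. Every psoas array lay below 4, so that its fold is a bound: MEIS2 was at least 28.7-fold higher in diaphragm (measured difference -5.41 ± 0.12, adjusted p = 1.6e-05). A second probe set of MEIS2 was also below 4 on every psoas array and was at least 3.32-fold higher in diaphragm. Both probe sets thus entered the test only through their diaphragm arrays. MEIS1 was higher in psoas, at 6.74 ± 0.45 against 5.89 ± 0.33 (adjusted p = 0.0234), while HOXA3, an anterior HOX gene, was 6.31 ± 0.12 in psoas and 6.81 ± 0.36 in diaphragm and was not called (adjusted p = 0.0891). In all, 4 of the 6 tested axial genes were called higher in psoas (background 9.47%) and 1 higher in diaphragm (background 8.55%). Without any 1 animal 3 or 4 and 1 were called.

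**Figure D1:**
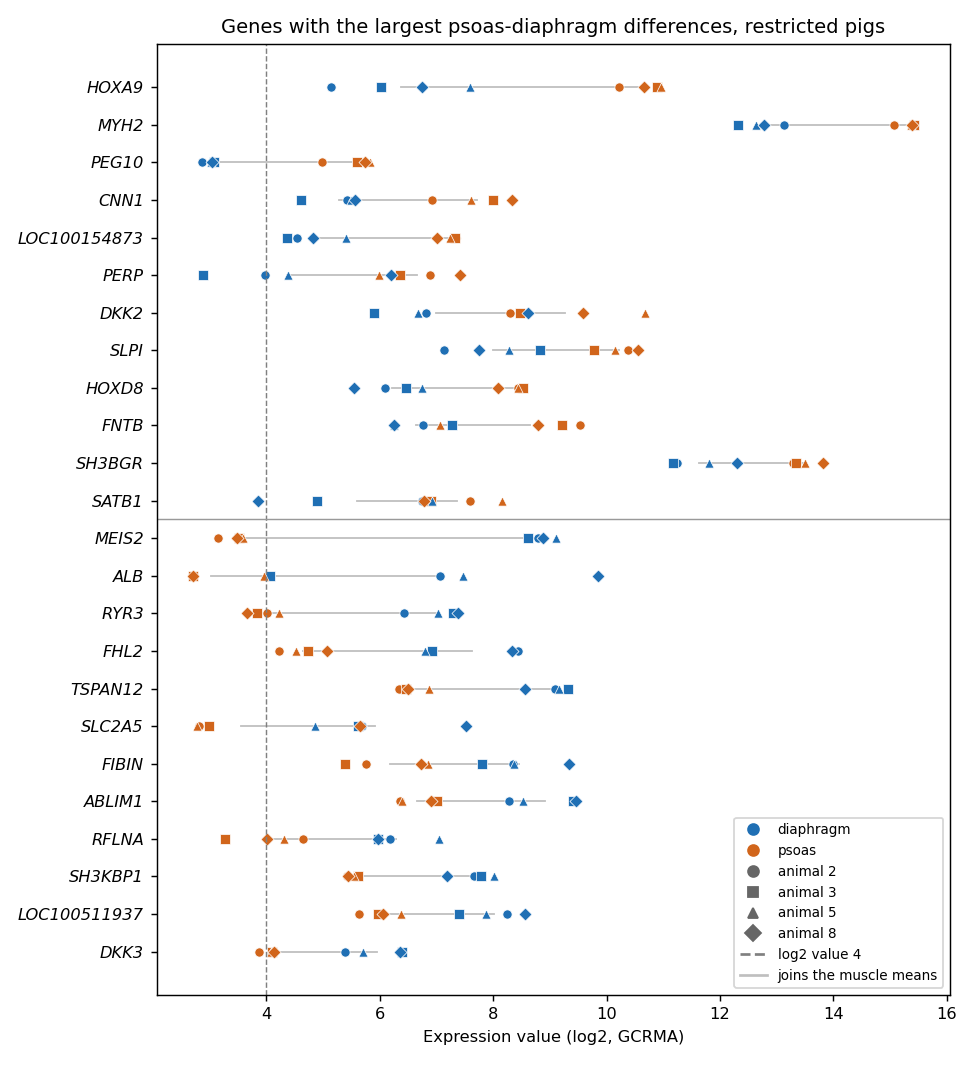
Expression values (log2) of the 24 named genes in diaphragm (blue) and psoas (orange) of each restricted animal (points, 1 shape per animal). Grey lines join the muscle means, and a dashed line marks a value of 4. The muscles differ in the same direction in all 4 animals for every gene shown, because the genes were chosen that way. MEIS2 and HOXA9 have the longest joining lines, at mean psoas minus diaphragm differences of -5.41 and 4.30. Values below 4 are plotted as measured.

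Of 8 fast fibre genes tested, 2 were called, both higher in psoas (background 9.47%). MYH2, a fast myosin heavy chain, read 15.07, 15.42, 15.36 and 15.38 in psoas and 13.12, 12.32, 12.63 and 12.77 in diaphragm. The groups did not overlap, and the difference was 2.60 ± 0.19 (6.06-fold, adjusted p = 0.00198). ATP2A1, the calcium pump of fast fibres, was 13.02 ± 0.20 against 11.90 ± 0.33 (adjusted p = 0.0145). The other 6 fast fibre genes tested, among them TNNT3 (0.29 ± 0.13), TNNI2 (0.24 ± 0.13) and TPM1 (0.28 ± 0.12), had positive differences that did not pass. The list's median difference was 0.26, with medians of 0.14, 0.64, 0.03 and 0.14 in animals 2, 3, 5 and 8. Many of these transcripts lay near 15, close to the highest values on the arrays (15.7 to 15.89), where differences can be compressed.

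Slow fibre genes had a negative median of -0.17 but few calls. Of the 11 genes tested, 9 had the higher mean in diaphragm, and 1 passed in each direction. TPM3, the slow tropomyosin, was higher in diaphragm at 8.88 ± 0.17 against 8.196 ± 0.16 (adjusted p = 0.0184), and MYL3, the slow and ventricular essential myosin light chain, was higher in psoas at 13.96 ± 0.31 against 13.38 ± 0.07 (adjusted p = 0.0386). MYH7, the slow myosin heavy chain, which was picked out here after its values were seen, was 15.12 ± 0.04 in diaphragm and 15.01 ± 0.15 in psoas (adjusted p = 0.501). The psoas of animal 3 stood lowest of the 4 for MYH7 at 14.8, TNNT1 at 14.3 and TNNI1 at 13.88, and the same animal had the most negative median over the slow list at -0.45. Its median over the fast list was the highest of the 4 animals. TNNT1 and TNNI1, the slow troponins, were also picked out after their values were seen, and neither was called.

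Calcium handling and the scaffold around the Z-disc held 2 of the largest differences in favour of diaphragm. RYR3, an isoform of the calcium release channel of the sarcoplasmic reticulum, read 6.43, 7.30, 7.03 and 7.38 in diaphragm and 4.01, 3.83, 4.22 and 3.66 in psoas. It was thus high in every diaphragm and near 4 in every psoas (-3.11 ± 0.22, 8.62-fold, adjusted p = 0.00198). RYR1, the channel isoform that triggers skeletal contraction, was 12.72 ± 0.07 in psoas and 12.41 ± 0.17 in diaphragm and was not called (adjusted p = 0.104). S100A1, a calcium sensor protein, was called higher in diaphragm (9.58 ± 0.74 against 8.24 ± 0.87, adjusted p = 0.0293). Sarcolipin, SLN, an inhibitor of the calcium pump, was 14.70 ± 0.05 in psoas and 14.62 ± 0.09 in diaphragm (adjusted p = 0.596).

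Among 19 tested genes of the sarcomere, LIM domain and Z-disc list, 3 (15.8%) were called higher in diaphragm (background 8.55%). Psoas was higher for 1 (5.26%, background 9.47%), and the list's median was -0.09. FHL2, a LIM domain adaptor of the sarcomere that is abundant in heart, read 8.43, 6.92, 6.81 and 8.33 in diaphragm and 4.23, 4.74, 4.53 and 5.06 in psoas (-2.99 ± 0.34, 7.92-fold, adjusted p = 0.00718). ABLIM1, an actin-binding LIM protein, read 8.28, 9.40, 8.53 and 9.45 against 6.36, 7.01, 6.39 and 6.89 (-2.25 ± 0.13, adjusted p = 0.00111). Neither gene's groups overlapped. CSRP2, a further LIM protein, was 5.41 ± 0.19 in diaphragm and 4.54 ± 0.26 in psoas (adjusted p = 0.0151), and XIRP2, an actin-binding repeat protein, was called the other way by 0.37 ± 0.09 (adjusted p = 0.0428). SH3BGR, a muscle protein with an SH3-binding region, was 13.49 ± 0.24 in psoas and 11.63 ± 0.53 in diaphragm (1.86 ± 0.13, adjusted p = 0.00198).

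Of 17 tested genes of glycolysis and glycogen metabolism, 8 were called, all higher in psoas (background 9.47%), and 9 did not pass. The list median was 0.35, and 16 of the 17 differences were positive, against 54.1% of all genes. PFKM, the muscle phosphofructokinase that commits glucose to glycolysis, read 13.5, 13.62, 13.22 and 13.58 in psoas and 12.55, 12.89, 12.86 and 12.87 in diaphragm, without overlap (0.69 ± 0.12, adjusted p = 0.0177). GPI, which converts glucose 6-phosphate to fructose 6-phosphate, differed by 0.83 ± 0.14 (adjusted p = 0.0178), and PGK1, phosphoglycerate kinase, by 0.70 ± 0.13 (adjusted p = 0.0221). On the glycogen side, GYS1, the muscle glycogen synthase, was 8.38 ± 0.23 against 7.70 ± 0.27 (adjusted p = 0.0333), and UGP2, which makes its substrate, UDP-glucose, 12.30 ± 0.34 against 11.71 ± 0.28 (adjusted p = 0.0301).

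The size of the glycolytic difference varied among the animals. The list median was 0.41 in animal 2, 0.47 in animal 3 and 0.41 in animal 8, but 0.09 in animal 5. For UGP2 the psoas of animal 5 read 11.88, against 12.18 to 12.6 in the other 3 animals. The number of called glycolytic genes was 0 without animal 2 or without animal 3, 3 without animal 5 and 4 without animal 8, while the median stayed between 0.28 and 0.38.

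Few genes of oxidative metabolism were called. Only ATP5D, a subunit of ATP synthase, passed among 55 oxidative phosphorylation genes (higher in psoas by 0.34 ± 0.09, adjusted p = 0.0437), and only IDH3A, a subunit of isocitrate dehydrogenase, among 23 genes of the tricarboxylic acid cycle (higher in psoas by 0.51 ± 0.11, adjusted p = 0.0285). Their list medians were -0.07 and -0.05, against 0.03 over all genes. For fatty acid oxidation and uptake, 3 of 27 genes (11.1%) were called, all higher in diaphragm, a share near the background of 8.55%. Without animal 2 or animal 3 there were 0 such calls, without animal 5 or animal 8 there was 1, and without the pairing by animal 1 gene was called in each direction. ACADL, the long-chain acyl-CoA dehydrogenase, was 11.15 ± 0.25 in diaphragm and 10.42 ± 0.54 in psoas (adjusted p = 0.0328). HADH, a later enzyme of the same spiral, differed by -0.54 ± 0.12 (adjusted p = 0.0345), and LPL, the lipase that frees fatty acids from lipoproteins, by -0.90 ± 0.22 (adjusted p = 0.0417).

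The fatty acid list did not move together. Its medians were 0.04, -0.47, 0.13 and -0.20 in animals 2, 3, 5 and 8, so that both signs occurred. Of the genes of fasting and fuel choice, PDK3, a kinase that inhibits pyruvate dehydrogenase, was higher in psoas in all 4 animals, at 5.92 ± 0.24 against 4.77 ± 0.22 (adjusted p = 0.0123). ANGPTL4, a secreted inhibitor of LPL that is induced by fasting, was higher in diaphragm, at 6.52 ± 0.59 against 5.96 ± 0.45 (adjusted p = 0.0369). The other 6 tested genes of that list, TXNIP, FOXO1, KLF15 and UCP3 among them, were not called. Of 9 tested lipogenesis and adipocyte genes, 2 (22.2%) were called higher in diaphragm (background 8.55%) and 1 (11.1%) higher in psoas (background 9.47%). The other 6 were not called, and 16 more on the array were too low to be tested. FABP4, the fatty acid carrier of adipocytes and capillary endothelium, was 11.07 ± 0.20 in diaphragm and 9.93 ± 0.27 in psoas (adjusted p = 0.0064). ELOVL6, a fatty acid elongase, was also called higher in diaphragm (6.62 ± 0.49 against 5.51 ± 0.47, adjusted p = 0.0145), and LPIN1, a phosphatidate phosphatase of lipid synthesis, was called higher in psoas (9.77 ± 0.44 against 9.09 ± 0.39, adjusted p = 0.0409).

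Several genes of the amino acid response were higher in psoas. ATF4 is the transcription factor that cells raise when amino acids run short, and it drives genes such as ASNS, asparagine synthetase. Of 11 tested genes of this list, 5 were called higher in psoas (background 9.47%) and 1 higher in diaphragm (background 8.55%). Differences were positive for 6 and negative for 5 of the genes, and the median, 0.55, was 0.21, 0.52, 0.04 and 0.69 in animals 2, 3, 5 and 8. ATF4 read 14.09, 14.18, 13.87 and 14.16 in psoas and 13.39, 13.51, 13.53 and 13.48 in diaphragm (0.60 ± 0.10, adjusted p = 0.0173). Its groups did not overlap.

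ASNS varied more between animals than between muscles, yet was higher in psoas within each animal. It read 9.28, 7.43, 8.70 and 7.68 in psoas and 7.25, 5.05, 7.62 and 6.39 in diaphragm, a paired difference of 1.69 ± 0.23 (adjusted p = 0.0102). VLDLR, a lipoprotein receptor, differed by 0.66 ± 0.10 (adjusted p = 0.0134), and PSPH, the last enzyme of serine synthesis, by 0.97 ± 0.26 (adjusted p = 0.048). The stress genes GADD45A and GADD45B were called in opposite directions, GADD45A higher in diaphragm (-1.27 ± 0.14, adjusted p = 0.00706) and GADD45B higher in psoas (0.55 ± 0.14, adjusted p = 0.044). Calls higher in psoas on this list numbered 0 without animal 2, 2 without animal 3, 5 without animal 5 and 3 without animal 8, and 2 without the pairing by animal.

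Mitochondrial ribosomal proteins build the ribosome that translates the mitochondrial genome. Of 57 tested, 8 (14%) were called higher in psoas, a share near the 9.47% of all genes, and none was called higher in diaphragm. A positive difference was found for 47 (82.5%), against 54.1% of all genes. The median was 0.17, and the largest called differences were 0.55 ± 0.10 for MRPS12 (adjusted p = 0.0184), 0.52 ± 0.11 for MRPL43 (adjusted p = 0.0261) and 0.52 ± 0.10 for MRPS30 (adjusted p = 0.0217). Leaving out animal 2, 3 or 5 left 0 calls, and leaving out animal 8 left 7. The 56 cytosolic ribosomal protein genes had a median of 0.08 and 2 calls, RPS27L (0.60 ± 0.10) and RPLP1 (0.47 ± 0.10), both higher in psoas. Of 40 proteasome genes, 1 was called higher in psoas (PSME3, a proteasome activator, 0.57 ± 0.09) and 2 higher in diaphragm (PSMB3, a core subunit, -1.23 ± 0.24, and PSMB8, an immunoproteasome subunit, -0.40 ± 0.11).

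Of 11 tested growth and myogenic genes, 1 (9.09%) was called in each direction. These shares were near the backgrounds of 9.47% for psoas and 8.55% for diaphragm. IGFBP5, a binding protein of the insulin-like growth factors, read 8.76, 8.05, 9.30 and 9.22 in diaphragm and 7.28, 7.16, 7.83 and 6.75 in psoas, without overlap (-1.58 ± 0.24, adjusted p = 0.0138). GHR, the growth hormone receptor, was higher in psoas at 7.63 ± 0.21 against 7.03 ± 0.20 (adjusted p = 0.0167). Of 19 genes of protein breakdown and autophagy, 3 (15.8%) were called higher in diaphragm (background 8.55%). They were BNIP3L, a receptor for the removal of mitochondria (-0.57 ± 0.09, adjusted p = 0.0153), GABARAPL1, an autophagosome protein (-0.61 ± 0.11, adjusted p = 0.0193), and CTSK, a collagen-degrading cathepsin (-0.87 ± 0.17, adjusted p = 0.0235). CAPN3 was the only one called higher in psoas (5.26%, background 9.47%). Of 22 heat shock genes, 9.09% were called higher in diaphragm, a share near the background of 8.55%. These were HSPA2, a chaperone of the HSP family (-1.59 ± 0.15, adjusted p = 0.00385) and CRYAB, the small chaperone of the Z-disc (-0.63 ± 0.13, adjusted p = 0.0235). Of 6 tested clock genes, 1 (16.7%) was called in each direction (backgrounds 9.47% for psoas and 8.55% for diaphragm). NFIL3 was higher in diaphragm (-0.97 ± 0.11, adjusted p = 0.00618) and RORA higher in psoas (0.50 ± 0.11, adjusted p = 0.0302).

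**Figure D2:**
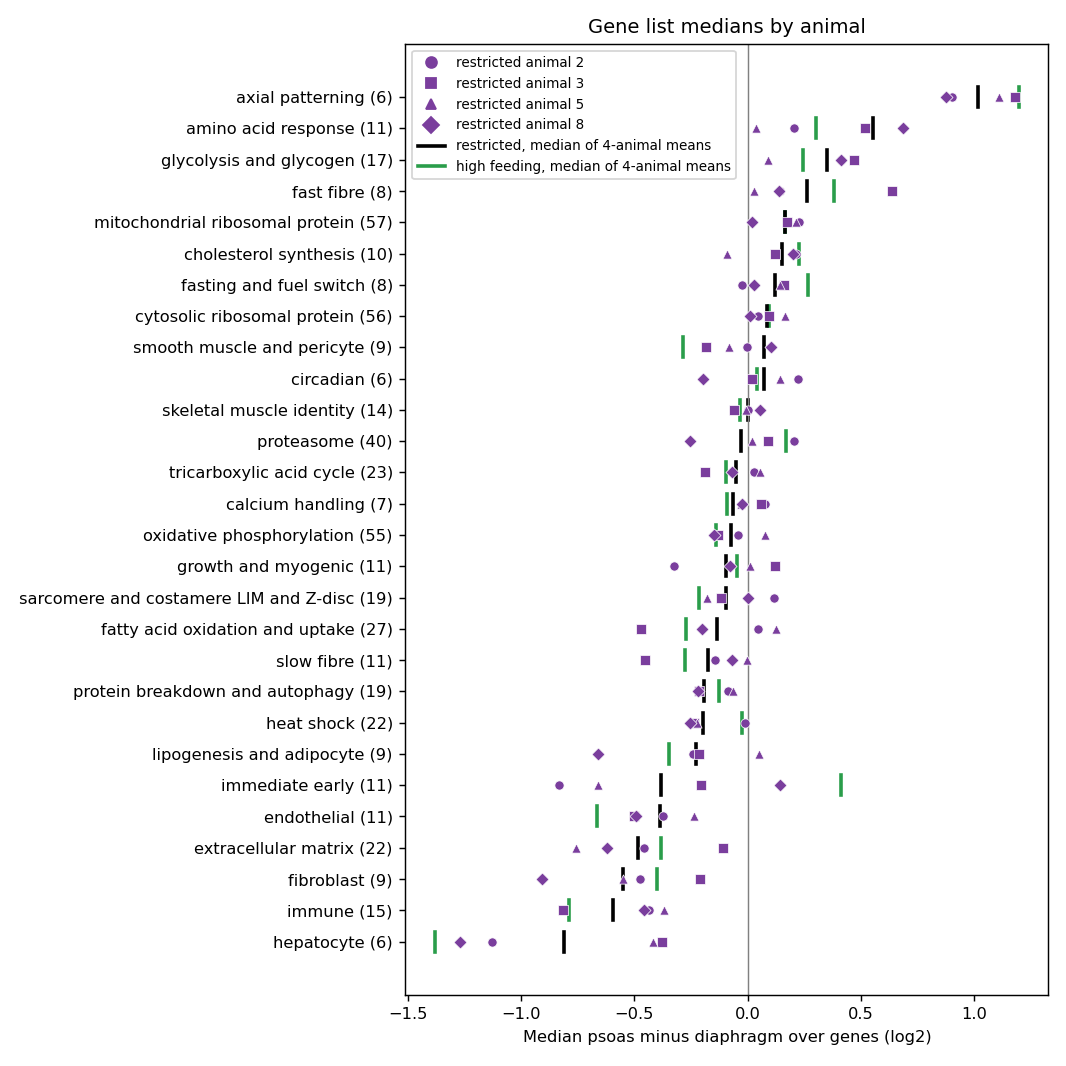
Median psoas minus diaphragm difference (log2) over the tested genes of each list (number of genes in brackets) in each restricted animal (purple points), with the median of the 4-animal means in restricted (black bars) and high-feeding animals (green bars). All 4 restricted animals are above 0 for the axial, glycolytic, amino acid, fast fibre and both ribosomal lists. They are below 0 for the matrix, fibroblast, endothelial, immune, hepatocyte, slow fibre, heat shock and protein breakdown lists. The immediate early list has its black and green bars on opposite sides of 0, at -0.38 and 0.41. So do the proteasome (-0.03 and 0.17), smooth muscle and pericyte (0.07 and -0.29) and skeletal muscle identity lists (0.003 and -0.03).

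Matrix, endothelial and immune genes were called higher in diaphragm more often than the background, and each list also held genes that did not pass. In whole muscle, more cells of a type and more RNA per cell cannot be told apart. Of 22 tested extracellular matrix genes, 11 were called higher in diaphragm (background 8.55%) and 1 higher in psoas, and the median was -0.48. LOX, which cross-links collagen, read 5.10, 5.62, 5.75 and 5.68 in diaphragm and 3.92, 5.09, 4.02 and 3.86 in psoas (-1.31 ± 0.22, adjusted p = 0.0169), so that the psoas of animal 3 was the highest of its group by more than 1 unit and close to the lowest diaphragm. LUM and DCN, small proteoglycans that bind collagen, differed by -0.56 ± 0.12 (adjusted p = 0.0254) and -0.75 ± 0.18 (adjusted p = 0.0365), and MGP, a matrix inhibitor of calcification, by -1.08 ± 0.23 (adjusted p = 0.0275). TIMP2, an inhibitor of matrix metalloproteinases, was the gene called higher in psoas (0.64 ± 0.15, adjusted p = 0.0364).

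The fibroblast list had 9 tested genes, all with negative differences. Of these, 3 were called (33.3%, background 8.55%): CLEC3B, a plasminogen-binding secreted protein (-0.87 ± 0.10, adjusted p = 0.00832), VIM, the mesenchymal intermediate filament (-0.70 ± 0.10, adjusted p = 0.0121), and DPT, the matrix protein dermatopontin (-0.81 ± 0.21, adjusted p = 0.0454). Animal 3 had the smallest matrix and fibroblast medians, at -0.11 and -0.21, against -0.76 to -0.46 and -0.91 to -0.47 in the other animals. Matrix calls higher in diaphragm numbered 0 without animal 2 or animal 5, 6 without animal 3 and 1 without animal 8, and 5 without the pairing by animal. The matrix medians under these settings stayed between -0.61 and -0.39. Fibroblast calls numbered 0 without the pairing by animal, 1 without animal 2, 3 without animal 3 and 2 without animal 5 or animal 8.

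All 11 tested endothelial genes had the higher mean in diaphragm, and 6 were called (54.5%, background 8.55%). PECAM1, an adhesion protein of endothelial junctions, read 9.03, 9.35, 9.21 and 8.91 in diaphragm and 8.28, 8.30, 8.34 and 8.41 in psoas, without overlap (-0.79 ± 0.11, adjusted p = 0.0121). VWF, the clotting factor that endothelium stores, differed by -0.89 ± 0.12 (adjusted p = 0.0102), CLDN5, a tight junction protein, by -0.84 ± 0.11 (adjusted p = 0.0106) and ERG, an endothelial transcription factor, by -1.005 ± 0.14 (adjusted p = 0.0121). CDH5 and ESAM, also of endothelial junctions, were called too. The mean level over the list was 7.18 to 7.61 in diaphragm and 6.80 to 7.09 in psoas. Without animal 2 there was 1 endothelial call, and without each of the other animals 4 or 5.

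Of 15 tested immune genes, 14 had the higher mean in diaphragm and 8 were called (53.3%, background 8.55%), none higher in psoas. They included genes of antigen presentation and of macrophages. SLA-DQA1, SLA-DQB1 and SLA-DRB1, the pig's class II histocompatibility chains, differed by -0.81 ± 0.16 (adjusted p = 0.0231), -0.60 ± 0.13 (adjusted p = 0.0321) and -0.55 ± 0.12 (adjusted p = 0.0311). MRC1, the mannose receptor of macrophages, read 4.65, 5.33, 4.79 and 5.73 in diaphragm and 4.04, 4.50, 3.85 and 4.11 in psoas (-1 ± 0.17, adjusted p = 0.0175), low in both muscles. C1QC, a complement chain made by macrophages, differed by -0.63 ± 0.13 (adjusted p = 0.0247). The immune calls numbered 0 without animal 2, 1 without animal 3 or animal 5 and 4 without animal 8, and 2 without the pairing by animal.

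RNA quality measures differed between the muscles of the restricted animals. The log2 signal at the 3' end minus that at the 5' end of the actin control transcript, which grows as RNA degrades, was 3.996 ± 0.43 in diaphragm and 3.36 ± 0.26 in psoas (n = 4 animals), lower in psoas in 4 of 4 animals. The GAPDH control gave -0.03 ± 0.08 and -0.13 ± 0.05, also lower in psoas in 4 of 4 animals. For both, the exact two-sided sign-flip p was 0.125, the smallest that 4 pairs can give. The EF1a control was lower in psoas in 3 of 4 animals (0.94 ± 0.18 against 1.03 ± 0.25, exact p = 0.5). In high-feeding animals 1, 4, 6 and 7 the actin value was 3.29, 3.565, 3.42 and 3.85 in psoas and 4.28, 3.37, 3.49 and 3.355 in diaphragm. It was thus lower in psoas in animals 1 and 6 and higher in animals 4 and 7. The part of RNA quality in the matrix, vascular and immune differences was not tested. In restricted animals 2, 3, 5 and 8 the actin value was lower in psoas by 0.882, 0.747, 0.621 and 0.292. The matrix medians of these animals were -0.46, -0.11, -0.76 and -0.62, the endothelial medians -0.37, -0.50, -0.23 and -0.49 and the immune medians -0.44, -0.81, -0.37 and -0.46.

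Transcripts typical of liver were found in diaphragm. The diaphragm lies against the liver, and the hepatocyte list was set as a marker list of a neighbouring tissue. Of 25 hepatocyte genes on the array, 6 were tested and 3 were called, all higher in diaphragm (background 8.55%). Of the 6 differences, 1 was positive. ALB, serum albumin, read 7.07, 4.07, 7.47 and 9.84 in diaphragm and lay below 4 on every psoas array, so that it was at least 8.65-fold higher in diaphragm (measured difference -4.09 ± 0.83, adjusted p = 0.0246). ALB thus entered the test only through its diaphragm arrays. Its level spread over more than 5 log2 units among the 4 diaphragms, lowest in animal 3 and highest in animal 8. APOA1 and APOE, apolipoproteins of which the latter is also made by macrophages, differed by -0.89 ± 0.20 (adjusted p = 0.0307) and -0.71 ± 0.16 (adjusted p = 0.0345), and the mean level over the 6 tested genes was 6.08 to 7.35 in diaphragm and 5.20 to 6.08 in psoas. The list's calls numbered 0 without animal 2 or animal 5 and 2 without animal 3 or animal 8. The call for ALB was lost without animal 2 (adjusted p = 0.0925) or animal 5 (adjusted p = 0.0728).

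Of the 19 hepatocyte genes that were too low to be tested, 15 stayed below 4 on all 8 restricted arrays, among them abundant liver transcripts such as TTR, SERPINA1 and AHSG, whose highest values were 3.08, 3.79 and 3.38. The other 4, FGB, HP, APOC3 and TF, reached 4 in diaphragm. FGB, a fibrinogen chain, read 5.56, 2.68, 6.04 and 9.59 in diaphragm, and HP, haptoglobin, 3.13, 2.25, 4.14 and 8.47. APOC3 read 3.86, 2.92, 5.40 and 6.54. For these 3 genes every psoas array of the restricted animals lay below 4, the diaphragm of animal 8 was the highest and that of animal 3 the lowest. The genes of this paragraph were picked out after their values were seen. Whether liver RNA bears on other diaphragm genes was not tested. Of 8 mesothelial genes on the array, only PDPN was tested, and it was not called.

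The other named genes were of mixed function. Higher in psoas were PEG10, an imprinted retrotransposon-derived gene, which read 4.98, 5.59, 5.83 and 5.74 and lay below 4 on every diaphragm array (at least 2.90-fold, adjusted p = 0.001), and CNN1, the calponin of smooth muscle, at 7.71 ± 0.61 against 5.27 ± 0.45 (2.44 ± 0.30, adjusted p = 0.00856). PEG10 thus entered the test only through its psoas arrays. The smooth muscle and pericyte list as a whole did not follow CNN1: of 9 tested genes, only CNN1 was called higher in psoas and only RGS5, a pericyte regulator of G protein signalling, higher in diaphragm (-0.54 ± 0.14, adjusted p = 0.0431), and the list median was 0.07. SLPI, a secreted inhibitor of serine proteases, was 10.21 ± 0.33 in psoas and 7.997 ± 0.72 in diaphragm (adjusted p = 0.0159).

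The groups of 4 further psoas genes overlapped although the paired difference was called. PERP, a membrane protein of cell junctions, read 6.88, 6.35, 5.99 and 7.41 in psoas and 3.97, 2.88, 4.39 and 6.203 in diaphragm, and SATB1, a chromatin organiser, 7.59, 6.91, 8.16 and 6.78 against 6.74, 4.90, 6.93 and 3.85. FNTB, a subunit of protein farnesyltransferase, differed by 2.01 ± 0.31 with the lowest psoas value, 7.06, in animal 5. DKK2, a secreted modulator of Wnt signalling, read 8.30, 8.48, 10.67 and 9.58 in psoas and 6.82, 5.89, 6.67 and 8.61 in diaphragm, but its other tested probe set differed by -0.14 ± 0.10 and was not called. Each of these 4 calls and that of SLPI was lost when 1 animal was left out: PERP and SLPI without animal 2 (adjusted p = 0.072 and 0.0587), FNTB without animal 2 or 3 (0.0606 and 0.0565), SATB1 without animal 3 or 5 (0.0815 and 0.0534), SLPI also without animal 5 (0.0513), and DKK2 without animal 2, 3 or 5 (0.0732, 0.1 and 0.0501). LOC100154873, a gene without an assigned symbol, was 7.22 ± 0.15 in psoas and 4.78 ± 0.45 in diaphragm (adjusted p = 0.00319).

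Membrane and secreted proteins were among the remaining genes higher in diaphragm. TSPAN12, a tetraspanin that works with the Norrin receptor in vessels, read 9.09, 9.32, 9.16 and 8.56 in diaphragm and 6.33, 6.47, 6.87 and 6.49 in psoas (-2.49 ± 0.15, 5.63-fold, adjusted p = 0.00141). SH3KBP1, an adaptor of receptor endocytosis, was as evenly separated, at 7.66 ± 0.35 against 5.504 ± 0.09 (adjusted p = 0.00141). SLC2A5, the fructose transporter, was 5.68, 5.61, 4.85 and 7.53 in diaphragm and 2.82, 2.99, 2.77 and 5.65 in psoas. It was highest in animal 8 in both muscles, its groups overlapped, and the paired difference was -2.36 ± 0.18 (adjusted p = 0.00246). With values under 4 set to 4, as in the psoas of 3 animals, it was -1.51.

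DKK3, a secreted relative of DKK2, was higher in diaphragm without overlap, at 5.96 ± 0.49 against 4.04 ± 0.12 (-1.92 ± 0.16, adjusted p = 0.00325). RFLNA, a partner of the actin cross-linker filamin, was 6.29 ± 0.51 in diaphragm and 4.06 ± 0.59 in psoas (adjusted p = 0.00471), and FIBIN, a secreted protein, was 8.46 ± 0.64 against 6.18 ± 0.72 (adjusted p = 0.00336). LOC100511937 differed by -2.01 ± 0.23 (adjusted p = 0.00724). Of the Schwann cell and nerve list 2 genes were tested, and MBP, myelin basic protein, was called higher in diaphragm (7.36 ± 0.21 against 6.43 ± 0.24, adjusted p = 0.00804). The 2 tested erythrocyte genes were not called.

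Of the 1978 called probe sets, 952 (48.1%) did not carry 1 gene symbol, and some of the largest differences lay among them. The unnamed probe set with the largest difference in favour of psoas read 12.8, 13.52, 12.25 and 13.05 in psoas and 3.82, 7.52, 6.46 and 9.40 in diaphragm (6.10 ± 0.76, adjusted p = 0.00898). The next was far more even, at 7.869 to 7.998 in psoas and 2.16 to 2.30 in diaphragm, and had the smallest adjusted p of the comparison, 6.2e-06. It lay below 4 on every diaphragm array, so that it was at least 15.2-fold higher in psoas. It thus entered the test only through its psoas arrays. In the other direction, the 2 largest were 7.24 ± 0.42 in diaphragm against 2.63 ± 0.26 in psoas, and 14.51 ± 0.02 against 10.52 ± 1.12. The former lay below 4 on every psoas array, so that it was at least 9.44-fold higher in diaphragm. It entered the test only through its diaphragm arrays. Which genes these unnamed probe sets report was not settled by the annotation used here.

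The same contrast was then read in the 4 high-feeding animals, which share no array with the restricted ones. There 591 of 11130 tested probe sets were called (5.31%), 215 higher in psoas (1.93%) and 376 higher in diaphragm (3.38%), and the median standard error was 0.14. Of the 1016 probe sets called higher in psoas under restriction, 1007 were tested at high feeding, 963 had the same sign (95.6%) and 168 were called in the same direction (16.5%). Of the 962 called higher in diaphragm, 947 were tested, 917 had the same sign (96.8%) and 263 were called in the same direction (27.3%). Over all 11004 probe sets tested in both groups of animals, 77.2% had the same sign. No probe set was called in opposite directions. The 431 calls in common were 21.8% of the calls under restriction and 72.9% of those at high feeding, and over the probe sets tested in both the differences correlated at a Pearson's r of 0.809, a value across probe sets, which are not independent replicates.

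**Figure D3:**
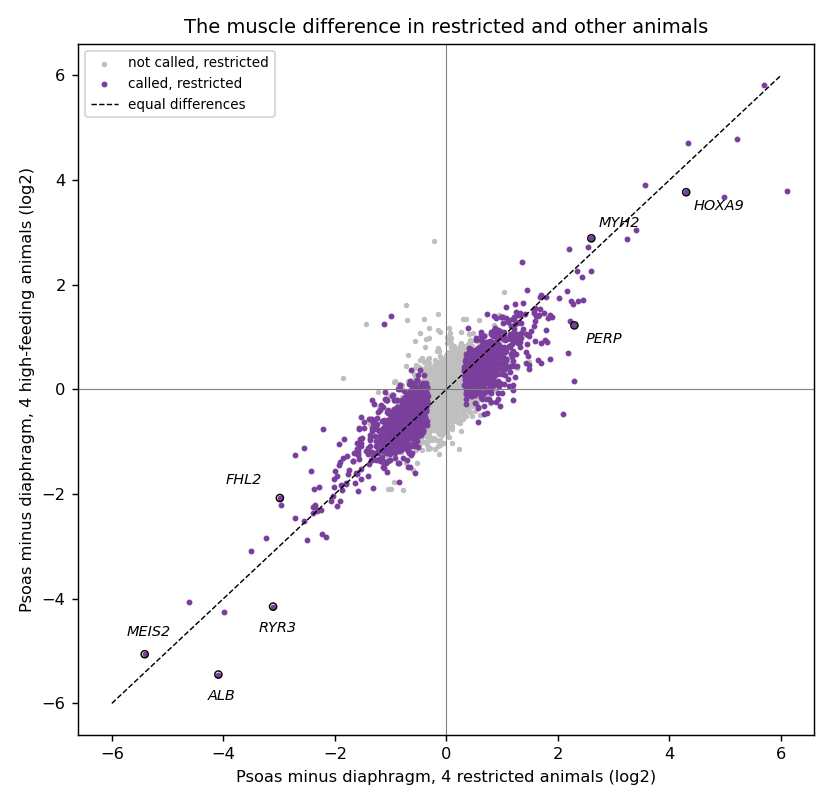
Psoas minus diaphragm difference (log2) of each probe set in the 4 restricted animals (x axis) and the 4 high-feeding animals (y axis). Probe sets called under restriction are in purple, and HOXA9, MEIS2, ALB, RYR3, MYH2, FHL2 and PERP are circled. A dashed line shows where the differences are equal. Most called points lie along that line, with MEIS2 at -5.41 and -5.06 and HOXA9 at 4.30 and 3.77, and values below 4 are plotted as measured.

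Most named genes were called in the high-feeding animals too. Of the 12 genes higher in psoas, 10 were called at high feeding and 11 had the same sign in 4 of 4 animals there, and of the 12 higher in diaphragm 11 were called and 12 had the same sign in 4 of 4. The 3 that were not called were DKK2 (1.63, adjusted p = 0.0637), SLPI (1.32, adjusted p = 0.0993) and SLC2A5 (-2.25, adjusted p = 0.0736). At high feeding MYH2 differed by 2.89. RYR3, ALB and MEIS2 were below 4 on every high-feeding psoas array and were at least 9.66-fold, 20.4-fold and 23.8-fold higher in diaphragm. Of the list medians, that of the glycolytic genes was 0.25 with 1 call, that of the immune genes -0.79, that of the endothelial genes -0.66 and that of the amino acid response 0.30.

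Whether the muscle difference itself depended on feeding was tested on 1 psoas minus diaphragm difference per animal, 4 restricted against 4 high-feeding, with sex as covariate. Limma called 0 of 11467 probe sets (0%) with Benjamini-Hochberg adjustment, and 696 (6.07%) had an unadjusted p under 0.05. The smallest adjusted p was 0.406, and the median standard error of the difference was 0.19. The genes below are those of smallest p in each direction, and none passed. The 24 genes named above had adjusted p-values of 0.787 or more.

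PLBD1, a phospholipase-like lysosomal protein, came closest. Its psoas exceeded its diaphragm by 0.79, 0.99, 1.12 and 1.10 in restricted animals 2, 3, 5 and 8, and by 0.01, -0.34, 0.17 and -0.14 in high-feeding animals 1, 4, 6 and 7 (1.07 ± 0.14 between feeding levels, adjusted p = 0.406). CTH, cystathionine gamma-lyase of cysteine synthesis, had differences of 1.29, 1.10, 1.03 and 1.34 under restriction and -0.08, 0.06, -0.21 and 0.55 at high feeding (1.11 ± 0.19, adjusted p = 0.522). For both genes the 4 restricted animals lay above the 4 others. Because the genes were chosen by this same difference, the separation adds no support to it. MLF1, a myeloid leukemia factor that is present in muscle, was higher in psoas in each restricted animal and lower in each high-feeding animal (0.91 ± 0.17, adjusted p = 0.597). In high-feeding animal 6 its difference was only -0.006.

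ANGPTL4 was higher in diaphragm at both levels, by less under restriction. Its differences were -0.37, -0.36, -0.51 and -0.9988 in restricted animals and -1.99, -1.73, -1.15 and -1.50 at high feeding (1.03 ± 0.23, adjusted p = 0.761). Its psoas read 6.43, 5.80, 5.41 and 6.21 under restriction and 5.25, 4.46, 5.05 and 3.68 at high feeding, while its diaphragm read 5.92 to 7.20 and 5.17 to 7.24. LHFPL2, a tetraspan membrane protein (0.68 ± 0.13), and TOP2A, a DNA topoisomerase of dividing cells (1.09 ± 0.21), completed the 6 with a higher difference under restriction. TOP2A was too low to be tested in the restricted animals alone, and with values under 4 set to 4 its difference was 0.43.

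**Figure D4:**
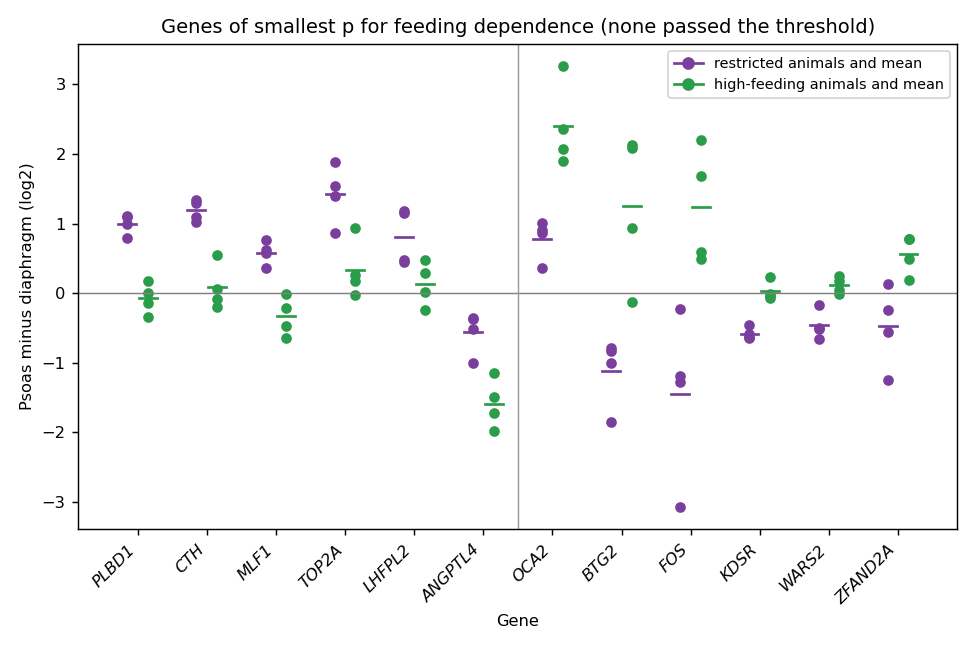
Psoas minus diaphragm difference (log2) per animal for the 12 genes of smallest p for a dependence on feeding, with the mean of the 4 restricted (purple) and the 4 high-feeding animals (green). FOS and BTG2 lie farthest apart, with -2.69 and -2.37 between the feeding levels, and no gene passed adjustment (smallest adjusted p 0.406).

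In the other direction OCA2, given below, had the smallest p. BTG2 and FOS are immediate early genes, which respond within minutes to stimuli and then fall again. FOS, a component of the AP-1 transcription factor, read 10.28, 9.63, 11.78 and 11.91 in the diaphragm of restricted animals and 7.20, 8.44, 10.5 and 11.69 in their psoas, a difference of -3.08, -1.20, -1.28 and -0.22. In the high-feeding animals the psoas was higher, by 0.60, 2.20, 1.69 and 0.49. The signs thus separated the 2 groups of animals (-2.69 ± 0.59), but FOS was chosen by this same difference, and limma's adjusted p was 0.761.

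BTG2, an antiproliferative early gene, differed by -1.01, -0.84, -1.84 and -0.79 under restriction, and it was among the called genes there (adjusted p = 0.0169). At high feeding its differences were 2.13, 0.94, 2.08 and -0.13 (-2.37 ± 0.48 between levels, adjusted p = 0.712). DUSP1, a phosphatase that ends MAP kinase signalling, was called higher in diaphragm under restriction (11.29 ± 0.21 against 10.43 ± 0.80, adjusted p = 0.0461). KLF4, a transcription factor (-0.67 ± 0.21), and IER3 (-0.40 ± 0.13) had negative differences in all 4 restricted animals but were not called.

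Over the list, 8 of 11 immediate early genes (72.7%) had the higher mean in diaphragm under restriction and in psoas at high feeding, against 12.2% of all tested genes. An unadjusted p under 0.05 for a lower difference under restriction was reached by 4 of 11 (36.4%), against 2.69% of all genes, and the smallest adjusted p was 0.712. The list median was -0.83, -0.21, -0.66 and 0.15 in restricted animals 2, 3, 5 and 8, so that animal 8 did not share the sign, and 0.23, 0.55, 1.12 and 0.08 in high-feeding animals 1, 4, 6 and 7. These genes share regulation and are not independent of each other. The list's 2 calls under restriction became 0 without animal 2 or animal 3, 1 without animal 5 and 3 without animal 8.

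**Figure D5:**
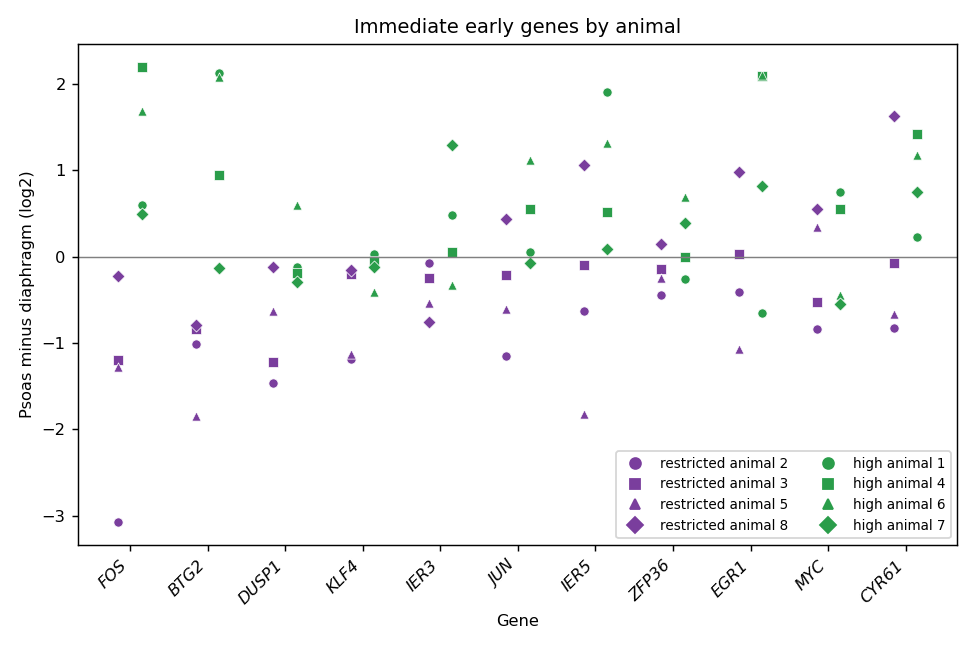
Psoas minus diaphragm difference (log2) of the 11 tested immediate early genes in each restricted (purple) and high-feeding animal (green), 1 point per animal. FOS is below 0 in the 4 restricted animals and above 0 in the 4 others, BTG2 is below 0 in 1 high-feeding animal as well, and for genes such as MYC and EGR1 the animals of both groups mix.

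KDSR, an enzyme of sphingolipid synthesis, was lower in psoas in each restricted animal, with differences of -0.65, -0.45, -0.59 and -0.63, and differences of -0.08 to 0.23 at high feeding (-0.61 ± 0.13, adjusted p = 0.761). WARS2, the mitochondrial tryptophan tRNA synthetase, gave -0.57 ± 0.13, ZFAND2A, a zinc finger protein induced by stress, -1.03 ± 0.24, and OCA2, a melanosome membrane protein, -1.62 ± 0.25. OCA2 was below 4 on all 8 restricted arrays, so that its difference there, 0.36 to 1.01, lies under the detection limit. With values under 4 set to 4 the difference between feeding levels was -0.93. Of the 40 proteasome genes, 17 (42.5%) had the higher mean in diaphragm under restriction and in psoas at high feeding. The share over all tested genes was 12.2%. The proteasome medians were -0.03 under restriction and 0.17 at high feeding, and the smallest adjusted p among these genes was 0.787. By animal, the restricted medians were 0.20, 0.09, 0.02 and -0.25 in animals 2, 3, 5 and 8, so that only animal 8 was negative.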

How the data were processed

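All values were taken as the authors deposited them, on the log2 scale, 1 per probe set and array. The submitters' processing notes name GCRMA. The sources used here do not state a version of it or say that the 16 arrays were summarised in 1 run, so both are not given. GCRMA makes the distributions of jointly processed arrays equal, which removes any shift common to most genes. No further scaling was applied. The table held 24123 probe sets, of which 124 were controls. By the platform annotation, 10099 carried 1 gene symbol, 198 several and 13826 none, and updating through gene identifiers changed 0 symbols. The number of arrays limits the precision.

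Linear models were fitted with limma 3.58.1 under R 4.3.3 (lmFit, eBayes), p-values were adjusted over all tested probe sets by Benjamini-Hochberg with a threshold of 0.05, and the script was tested on simulated data. Every adjusted p in the text is limma's. The animal was a block because both muscles came from the same animal, per the labels. After removal of the muscle means, correlations between an animal's 2 arrays were 0.419, 0.407, 0.406 and 0.457 for animals 2, 3, 5 and 8. Correlations between restricted arrays of 1 muscle lay between 0.973 and 0.987, and between 11045 and 11133 probe sets per array reached 4.

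A gene with several tested probe sets was represented by the one with the highest mean over the 8 arrays. Opposite calls between probe sets occurred in 3 of 941 such genes. A gene below 4 on every array of 1 muscle was given as a bound against 4. The named genes were, in each direction, the 12 with the largest difference among called genes with 1 symbol whose difference had 1 sign in all 4 animals, the 6 of smallest p for feeding dependence, and in each of 32 gene lists up to 6 of smallest p. One list, of the neuromuscular junction, had 0 genes tested. The members, the lists and these rules were chosen with earlier results of these data known. Alternatives were the fit without the block, other filters and scalings, a floor at 4, other eBayes settings, a fit on all 16 arrays and leaving out each animal.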

Additional observations from a re-analysis of the deposited data

Results flagged for a closer look

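In 106 groups of 4 values, 5 had 1 value set apart from the others by Dixon's criterion, which chance gives in about 1 in 20 groups. CNN1 read 4.60 in the diaphragm of animal 3, against 5.43 to 5.56 in the other diaphragms. ALB read 3.97 in the psoas of animal 5, against 2.70 to 2.72 in the other psoas samples. SLC2A5 read 5.65 in the psoas of animal 8, against 2.77 to 2.99 in the others. The median difference over glycolytic genes was 0.0911 in animal 5, against 0.41 to 0.47 in the others. The heat shock median was -0.0121 in animal 2, against -0.25 to -0.22 in the others.

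The genes of smallest p for feeding dependence, 6 in each direction, were checked for opposite signs of the muscle difference, and other genes were not. For 2 of them the muscle difference had opposite signs in every restricted and every high-feeding animal. In MLF1 the difference of high-feeding animal 6 was only -0.006. MLF1 differed by 0.91 between the feeding levels and FOS by -2.69, and limma's test of that difference gave adjusted p-values of 0.597 and 0.761, so that neither passed.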

How the results depend on the processing

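With the animal as a block, 1978 probe sets were called under restriction, and without the pairing, with sex as covariate, 1394 were called, of which 1331 were among the 1978. Without a filter on low values the count was 266, and leaving out 1 animal gave 286 to 1541. Over the other 6 alternatives it was 1862 to 2223. At high feeding the count was 591, and it was 193 without the block, 69 without a filter, 713 after quantile normalization and 58 to 211 without 1 animal. Leaving out 1 animal also leaves fewer samples, and the cause of these drops was not tested. The feeding dependence had 0 calls under each of its 13 alternatives, with 504 to 1161 probe sets at an unadjusted p under 0.05.

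No named gene changed direction. Of the 24, 10 passed under every one of their alternatives (HOXA9, MYH2, PEG10, HOXD8, SH3BGR, MEIS2, RYR3, TSPAN12, ABLIM1 and SH3KBP1). Of the other 14, 13 failed without a filter, SATB1 among them, which also failed without the block (adjusted p = 0.139), and SLC2A5 failed only without the block (adjusted p = 0.0677). Of 403 list medians under alternatives, 390 moved by less than 1 SD over animals. Values near 4 and near the top of the scale are compressed, which limits what can be read from low genes and from the most abundant contractile genes.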

Other observations

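POSTN, a matrix protein of healing and loaded tissue, was too low for the test but read 4.86, 3.02, 5.998 and 7.22 in the diaphragm of restricted animals 2, 3, 5 and 8 and lay below 4 in their psoas. Its order among these 4 diaphragms was that of FGB and HP, but the order differed at high feeding. There POSTN read 6.91, 2.69, 3.90 and 3.01 in the diaphragm of animals 1, 4, 6 and 7. FGB read 8.225, 8.83, 5.47 and 7.78 in the same diaphragms, and HP 7.31, 8.40, 5.03 and 7.42. ADIPOQ, the adipocyte hormone, read 2.23, 4.38, 2.35 and 4.36 in the diaphragm of these animals and 4.20, 2.44, 2.17 and 6.52 in that of high-feeding animals 1, 4, 6 and 7, and it was below 4 in every psoas. TF, the plasma iron carrier made by liver, read 2.33, 2.26, 3.25 and 6.84 in the diaphragm of the restricted animals. These genes were picked out after their values were seen, and no test was run on them.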
